A study of Homo sapiens with 8 samples.

Results

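The 10 genes described here encode amino acid transporters of the plasma membrane, namely SLC7A5, SLC3A2, SLC1A5, SLC1A4, SLC7A1, SLC38A1, SLC38A2, SLC6A9, SLC43A1 and SLC7A6, chosen by name among the 31461 genes of the table. Their mRNA was measured by RNA-seq in 8 libraries of human lung cancer lines transfected with miR-29a-3p or with a control microRNA, to look for genes that respond to this microRNA. The groups were miR-29a-3p and control in cells labelled A549, a lung adenocarcinoma line, and miR-29a-3p and control in cells labelled H1299, a large cell carcinoma line, with 2 libraries in each. All were labelled as wild type, and dose and duration are not stated in the labels used. Values are FPKM (fragments scaled by transcript length and by library depth), so that levels of different genes can be set side by side.

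Marker genes went against the line labels. CDKN2A, which is deleted in A549, stood at 23.8 and 24.8 FPKM in the A549-labelled controls and at 0.0513 and 0.112 FPKM in the H1299-labelled controls. Of 8 A549 marker genes, 7 were called lower and 0 higher in the A549-labelled than in the H1299-labelled controls. Among all genes tested, 29.8% were called lower and 45.0% higher in that comparison. Lines are therefore named as the libraries were labelled, and each direction between them holds for the label only. The libraries held an estimated 12221310 to 15614821 fragments. Of 8 matrix genes known as miR-29 targets, 8 fell in the A549-labelled libraries and 6 in the H1299-labelled ones, where 1 rose. The shares of all 14635 genes tested were 8.66% lower in the A549-labelled libraries, and 24.8% lower and 25.1% higher in the H1299-labelled ones. COL4A1, COL4A2 and COL5A1, which are among the 8, were under 1 FPKM in every A549-labelled library. Of markers of other cells, 5 leukocyte genes summed to 0.326 to 0.535 FPKM after miR-29a-3p in A549-labelled cells and 0.131 to 0.451 FPKM in their controls, and to 1.23 to 1.31 FPKM after miR-29a-3p in H1299-labelled cells and 0.653 to 0.682 FPKM in their controls. The sums of 5 fibroblast genes in these groups were 0.250 to 0.351, 0.355 to 0.493, 3.43 to 3.50 and 2.20 to 2.32 FPKM, and 4 endothelial genes reached at most 0.413 FPKM. Most of the leukocyte sum in H1299-labelled cells was CD14, at 0.952 and 0.964 FPKM after miR-29a-3p and 0.498 and 0.552 FPKM in their controls. PTPRC and CD3E were at 0 in all but the H1299-labelled miR-29a-3p group. There PTPRC was at 0.00675 and 0.00671 FPKM and CD3E at 0.00941 and 0.00 FPKM. The part of the markers of other cells in the results was not tested.

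Cells take up amino acids through solute carriers that exchange them across the membrane or couple their entry to sodium. Large neutral and essential amino acids enter through heteromers of a light chain such as SLC7A5 (LAT1) and the heavy chain SLC3A2, in exchange for glutamine that SLC1A5 and the SLC38 family bring in. When amino acids run short or the endoplasmic reticulum is stressed, the transcription factor ATF4 is translated and induces several of these carriers together with enzymes of amino acid synthesis and aminoacyl-tRNA synthetases. Lung cancer cells often carry high levels of SLC7A5 and SLC1A5.

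A microRNA finds its targets mainly by pairing of its seed, bases 2 to 8, with sites in a 3′ UTR. The mature sequence from RefSeq (GRCh38.p14, chr7:130876748-130876769, minus strand) is shown with the seed in capitals, to be read against the sites that follow.
hsa-miR-29a-3p: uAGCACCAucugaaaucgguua

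The full seed match, TGGTGCT, occurred in the longest annotated 3′ UTR of 3 of the 10 transporters, SLC7A5, SLC43A1 and SLC7A6, against 16.4% of the 11632 tested genes that have such a UTR in GENCODE 29. These 4 sites are shown on the strand of the mRNA (GRCh38), with the match in capitals, since they are where direct repression by the seed would be looked for. SLC7A6 holds the only one that is followed by A, the 8mer form.
SLC7A6, chr16:68298407-68298432, plus strand: aagcaatcccaaccTGGTGCTAggtc
SLC7A6, chr16:68298703-68298728, plus strand: ggaagcaactaattcTGGTGCTcagg
SLC7A5, chr16:87830617-87830642, minus strand: ccagtctgtgatcctTGGTGCTgtgt
SLC43A1, chr11:57484573-57484598, minus strand: ggcaggttccctctcTGGTGCTgctg

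The shorter match GGTGCT also occurred alone, at 3 places in the 3′ UTR of SLC7A5 and at 1 each in those of SLC1A5, SLC1A4 and SLC7A6. Alone or within the full match, GGTGCT occurred in 34.1% of the tested genes that have such a UTR. It was not found in the 3′ UTRs of SLC3A2, SLC7A1, SLC38A1, SLC38A2 and SLC6A9.

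After miR-29a-3p some of the transporters rose in the A549-labelled cells, and most fell in the H1299-labelled ones. Among A549-labelled libraries 4 rose, SLC7A1, SLC1A4, SLC3A2 and SLC6A9, and 0 fell, with a median log2 fold change of 0.21, while 7.30% of all 14635 genes tested rose and 8.66% fell. Among H1299-labelled libraries 9 of 10 fell and 0 rose, with a median of -1.13, while 24.8% of all genes tested fell there and 25.1% rose. Without overlap between the groups, 6 were higher and 2 lower in the A549-labelled set, against 29.8% and 29.2% of all genes, and 9 were lower in the H1299-labelled set, against 37.4% of all genes lower and 38.5% higher. The median over all genes tested was 0.0014 in the A549-labelled and 0.0012 in the H1299-labelled libraries. SLC43A1 passed the filter on low values only through the H1299-labelled controls, where it is high, and without it 4 of 9 rose in the A549-labelled and 8 of 9 fell in the H1299-labelled libraries. The test throughout was limma on log2(FPKM + 1) over all genes tested, a call is a Benjamini-Hochberg adjusted p under 0.05, and fold changes on this scale understate those of low genes. With the A549-labelled libraries fitted alone, SLC7A1 was the 1 transporter still called there (adjusted p = 0.020). In bulk RNA, fewer cells and less RNA per cell cannot be told apart.

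**Figure D1:**
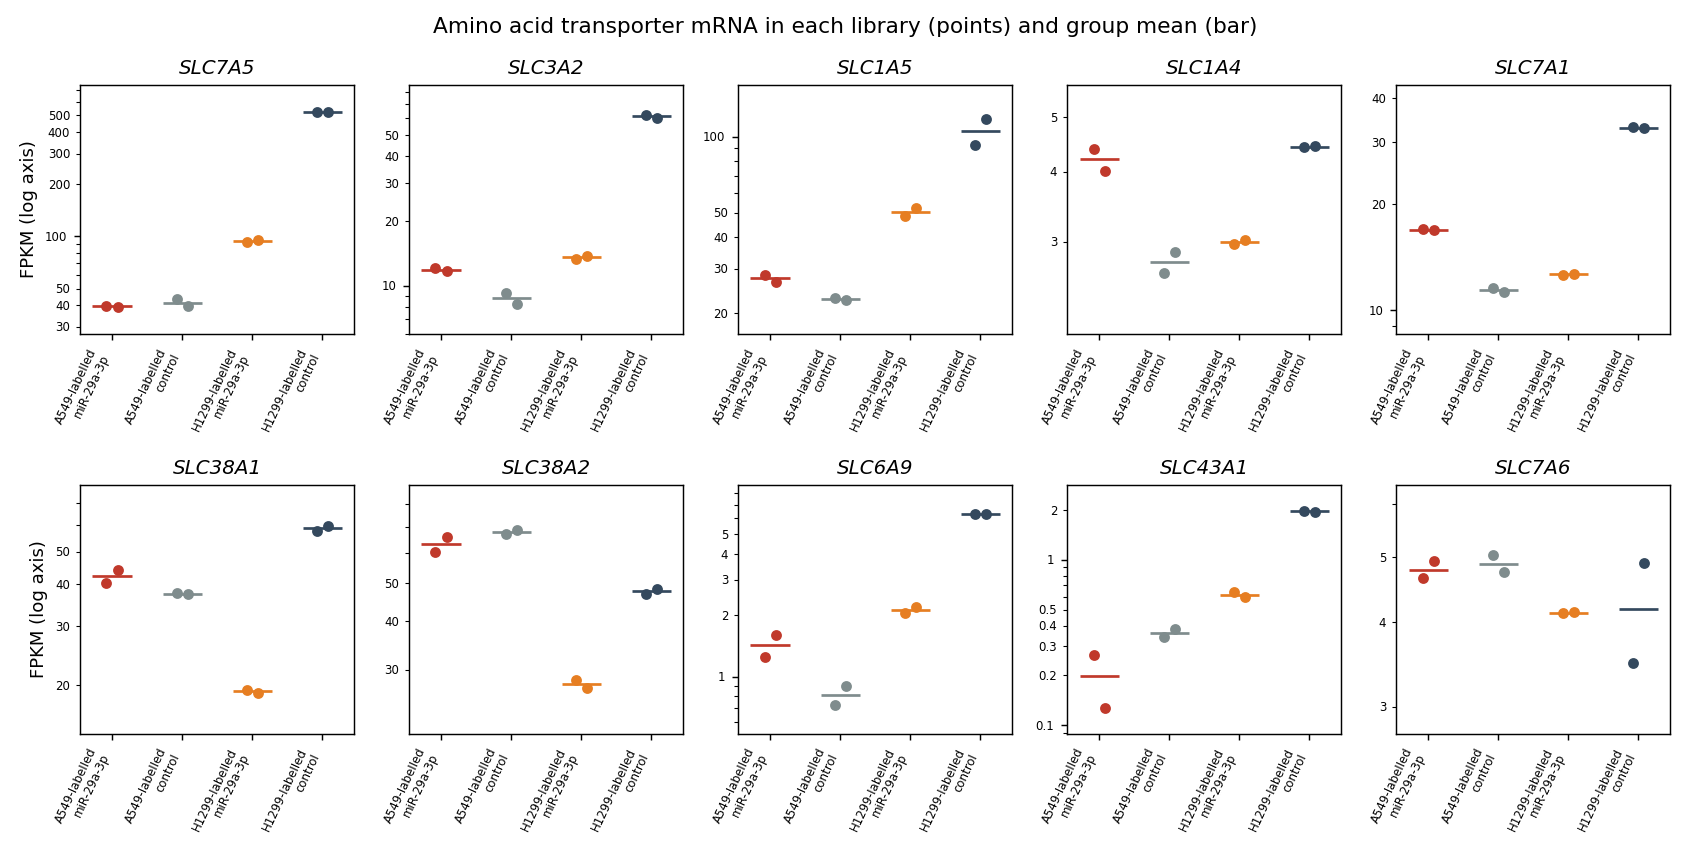
FPKM of each transporter (log axis) in every library, by group, with points for libraries and bars for the mean of 2. The H1299-labelled controls stand above the H1299-labelled miR-29a-3p libraries for every gene except SLC7A6, where the 2 controls (3.48 and 4.90 FPKM) lie on either side of them.

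**Figure D2:**
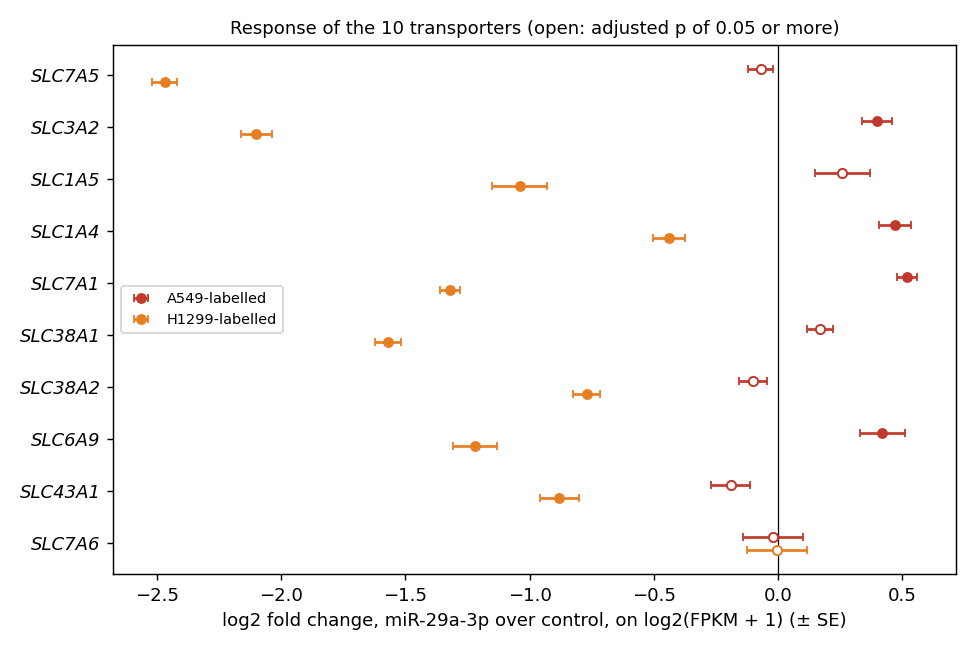
Log2 fold change of each transporter, miR-29a-3p over control on the log2(FPKM + 1) scale, with its SE, for A549-labelled and H1299-labelled libraries; open points were not called. SLC7A5 and SLC3A2 lie furthest left in the H1299-labelled libraries, at -2.47 and -2.10, and SLC7A1 furthest right in the A549-labelled ones, at 0.52.

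SLC7A5 (ENSG00000103257, chromosome 16, 87830023 to 87869488, minus strand), the light chain that carries leucine and other large neutral amino acids, fell the most of the 10 in the H1299-labelled libraries and was not called in the A549-labelled ones. It had 39.9 and 38.9 FPKM after miR-29a-3p in A549-labelled cells, against 43.4 and 39.5 FPKM in their controls. These groups overlapped, and the log2 fold change was -0.07 ± 0.052 (SE, limma adjusted p = 0.41). SLC7A5 had 92.7 and 94.8 FPKM after miR-29a-3p in H1299-labelled cells, against 526 and 523 FPKM in their controls. Here the groups lay far apart, and the mean was 5.59-fold lower after miR-29a-3p (log2 fold change -2.47 ± 0.052, SE, adjusted p = 4.6e-06). The pseudogenes SLC7A5P1 and SLC7A5P2 resemble SLC7A5 and were listed at 1.17 to 4.97 FPKM, and how fragments were shared among these copies was not tested.

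SLC3A2 (ENSG00000168003, chromosome 11, 62856102 to 62888875, plus strand), the heavy chain that brings SLC7A5 and SLC7A6 to the membrane, rose in the A549-labelled and fell in the H1299-labelled libraries. It had 12.1 and 11.7 FPKM after miR-29a-3p in A549-labelled cells and 9.23 and 8.26 FPKM in their controls. The groups did not overlap, but this rise of 0.40 ± 0.061 on the log2 scale (SE, adjusted p = 0.0086) lost its call without A549-labelled miR-29a-3p library 1 (adjusted p = 0.050) and with the line fitted alone (adjusted p = 0.056). After miR-29a-3p in H1299-labelled cells it had 13.3 and 13.8 FPKM, against 62.1 and 60.5 FPKM in their controls, again without overlap. The mean was 4.52-fold lower there (log2 fold change -2.10 ± 0.061, SE, adjusted p = 9.8e-06). After miR-29a-3p its means were 11.9 FPKM in A549-labelled and 13.6 FPKM in H1299-labelled cells, and in the controls 8.75 and 61.3 FPKM.

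SLC7A6 (ENSG00000103064, chromosome 16, 68264516 to 68301823, plus strand), a light chain that exchanges cationic for neutral amino acids, was the 1 transporter called in neither line, and it carries the most full seed matches. It had 4.65 and 4.93 FPKM after miR-29a-3p in A549-labelled cells and 5.03 and 4.75 FPKM in their controls. SLC7A6 had 4.13 and 4.14 FPKM after miR-29a-3p in H1299-labelled cells, against 3.48 and 4.90 FPKM in their controls. The groups overlapped in both lines, with log2 fold changes of -0.02 ± 0.12 in the A549-labelled (adjusted p = 0.92) and -0.0029 ± 0.12 in the H1299-labelled libraries (SE, adjusted p = 0.99). Its exons share 845 bases with AC020978.9 and 3371 bases with SLC7A6OS on the opposite strand, and the second of these was listed at 2.22 to 2.85 FPKM. With no strand setting stated, the reads of these genes cannot be told apart.

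SLC7A1 (ENSG00000139514, chromosome 13, 29509410 to 29595688, minus strand), which imports arginine and lysine, rose in the A549-labelled libraries, with the highest log2(FPKM + 1) fold change of the 10, and fell in the H1299-labelled ones. It had 17.0 and 16.9 FPKM after miR-29a-3p in A549-labelled cells and 11.6 and 11.3 FPKM in their controls, a ratio of means of 1.48 (log2 fold change 0.52 ± 0.041, SE, adjusted p = 0.00099). By the ratio of means SLC6A9 (1.75) and SLC1A4 (1.53) were higher. After miR-29a-3p in H1299-labelled cells it had 12.6 and 12.7 FPKM, against 33.1 and 33.0 FPKM in their controls, a 2.61-fold lower mean (log2 fold change -1.32 ± 0.041, SE, adjusted p = 9.8e-06). The groups did not overlap in either line. The A549-labelled libraries were higher than the H1299-labelled ones after miR-29a-3p and lower among the controls.

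SLC43A1 (ENSG00000149150, chromosome 11, 57484534 to 57515786, minus strand), a sodium-independent carrier of branched-chain amino acids, was the lowest of the 10 in every library. It had 0.267 and 0.127 FPKM after miR-29a-3p in A549-labelled cells and 0.341 and 0.381 FPKM in their controls, which is an estimated 4.07 to 12.7 fragments in a library. The groups did not overlap, and the log2 fold change of -0.19 ± 0.078 was not called (SE, adjusted p = 0.16). It was -0.68 with a pseudocount of 0.1, -0.27 without A549-labelled miR-29a-3p library 1 and -0.10 without library 2, with no call in these cases. SLC43A1 had 0.639 and 0.592 FPKM after miR-29a-3p in H1299-labelled cells, against 1.99 and 1.95 FPKM in their controls (log2 fold change -0.88 ± 0.078, SE, adjusted p = 0.00022, and -1.53 with a pseudocount of 0.1). Only these controls reached 1 FPKM, so the filter favoured a fall and this p supports nothing by itself.

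Among the carriers of small neutral amino acids and glutamine, SLC1A5 (ENSG00000105281, chromosome 19, 46774883 to 46788594, minus strand), an exchanger of glutamine, had 28.3 and 26.7 FPKM after miR-29a-3p in A549-labelled cells and 23.0 and 22.5 FPKM in their controls. These groups did not overlap, but the log2 fold change of 0.26 ± 0.11 was not called (SE, adjusted p = 0.16). It passed the threshold without either H1299-labelled control (adjusted p = 0.041 in both cases), whose spread enters the fit. After miR-29a-3p in H1299-labelled cells it had 48.5 and 52.0 FPKM, against 92.6 and 118 FPKM in their controls, which lay apart from each other but above the treated libraries. The mean was 2.09-fold lower (log2 fold change -1.04 ± 0.11, SE, adjusted p = 0.00043). With no strand setting stated, its reads cannot be told apart from those of an antisense gene, AC008622.2, which shares 780 exon bases with it and was listed at 0.105 to 0.574 FPKM.

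SLC1A4 (ENSG00000115902, chromosome 2, 64988477 to 65023865, plus strand), an exchanger of alanine, serine and cysteine, rose in the A549-labelled libraries and had the smallest change of the 9 that fell in the H1299-labelled ones. It had 4.40 and 4.02 FPKM after miR-29a-3p in A549-labelled cells and 2.64 and 2.88 FPKM in their controls, a rise of 0.47 ± 0.064 on the log2 scale (SE, adjusted p = 0.0060, and 0.054 with the line fitted alone). SLC1A4 had 2.98 and 3.02 FPKM after miR-29a-3p in H1299-labelled cells, against 4.42 and 4.45 FPKM in their controls (log2 fold change -0.44 ± 0.064, SE, adjusted p = 0.0016). The groups were separate in both lines, with the A549-labelled libraries higher than the H1299-labelled ones after miR-29a-3p and lower among the controls.

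SLC38A1 (ENSG00000111371, chromosome 12, 46183063 to 46270017, minus strand), which couples the uptake of glutamine to sodium, fell 3.06-fold in the H1299-labelled libraries. It had 40.4 and 44.3 FPKM after miR-29a-3p in A549-labelled cells and 37.6 and 37.4 FPKM in their controls, which was not called (log2 fold change 0.17 ± 0.053, SE, adjusted p = 0.084). The groups did not overlap there, and 29.8% of all genes tested were likewise higher in both treated libraries. After miR-29a-3p in H1299-labelled cells it had 19.4 and 19.0 FPKM, against 57.6 and 59.9 FPKM in their controls (log2 fold change -1.57 ± 0.053, SE, adjusted p = 1.1e-05).

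SLC38A2 (ENSG00000134294, chromosome 12, 46358189 to 46372867, minus strand), a sodium-coupled carrier that cells raise when amino acids are scarce, had 60.2 and 65.8 FPKM after miR-29a-3p in A549-labelled cells and 67.1 and 68.5 FPKM in their controls. The treated libraries were the lower ones, without a call (log2 fold change -0.10 ± 0.055, SE, adjusted p = 0.26). SLC38A2 had 28.3 and 26.9 FPKM after miR-29a-3p in H1299-labelled cells, against 47.0 and 48.5 FPKM in their controls, a 1.73-fold lower mean (log2 fold change -0.77 ± 0.055, SE, adjusted p = 0.00010). It was the 1 transporter called higher in the A549-labelled than in the H1299-labelled controls.

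SLC6A9 (ENSG00000196517, chromosome 1, 43991500 to 44031467, minus strand), the glycine transporter GLYT1, had 1.25 and 1.60 FPKM after miR-29a-3p in A549-labelled cells and 0.730 and 0.898 FPKM in their controls. That rise of 0.42 ± 0.090 on the log2 scale (SE, adjusted p = 0.027) lost its call without A549-labelled control 1 (adjusted p = 0.11), control 2 (0.063) or miR-29a-3p library 2 (0.098), and without either H1299-labelled control (0.052). After miR-29a-3p in H1299-labelled cells it had 2.06 and 2.20 FPKM, against 6.30 and 6.31 FPKM in their controls. These groups lay apart, with a 2.95-fold lower mean after miR-29a-3p (log2 fold change -1.22 ± 0.090, SE, adjusted p = 0.00012). Its exons share 404 bases with CCDC24 on the opposite strand, listed at 0.496 to 1.62 FPKM.

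The difference between the responses was itself called for 9 of the 10 transporters, each with the higher log2 fold change in the A549-labelled libraries, while 18.1% of all genes tested were called in that direction and 19.2% in the other. Without SLC43A1, which the filter admitted only through its high H1299-labelled controls, it was 8 of 9. The difference (A549-labelled minus H1299-labelled) was widest for SLC3A2, at 2.50 ± 0.086, and SLC7A5, at 2.40 ± 0.073 (SE, adjusted p = 4.1e-05 and 3.4e-05). For SLC7A6 it was -0.02 ± 0.18 (adjusted p = 0.94). SLC3A2, SLC1A4, SLC7A1 and SLC6A9 were called higher in the A549-labelled and lower in the H1299-labelled libraries, 4 of 10, against 1.72% of all genes tested.

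In the controls, the A549-labelled libraries had lower levels than the H1299-labelled ones for 8 of the 10 transporters and a higher level for 1, while 29.8% of all genes tested were called lower and 45.0% higher (35.3% and 38.6% with rescaled libraries). Without SLC43A1, whose lower level here was favoured by the filter, 7 of 9 were lower and 1 higher. SLC7A5 was 12.6-fold lower (log2 fold change -3.63 ± 0.052, SE, adjusted p = 4.7e-08), SLC6A9 7.75-fold, SLC3A2 7.0-fold, SLC43A1 5.46-fold and SLC1A5 4.61-fold lower. SLC7A1 was 2.88-fold, SLC1A4 1.61-fold and SLC38A1 1.56-fold lower. SLC38A2 was higher by 0.50 ± 0.055 on the log2 scale (adjusted p = 0.00021), at a ratio of 1.42. SLC7A6 stood at 4.89 ± 0.20 and 4.19 ± 1.0 FPKM (SD, n = 2 each, limma adjusted p = 0.20). Over all genes tested the median of this contrast was 0.17, and rescaling the libraries to a common median moved it by -0.14. The 9 calls held with rescaling, with SLC38A2 then at 0.31 (adjusted p = 0.0015). These H1299-labelled controls are the same libraries that the response in that line is set against.

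Which transporter was most abundant depended on the line label. SLC38A2 had the highest FPKM of the 10 in each A549-labelled library and SLC7A5 in each H1299-labelled one. SLC7A5 lay above 98.2% of all genes tested after miR-29a-3p in H1299-labelled cells and above 99.6% in their controls. The A549-labelled libraries had SLC38A1 and SLC7A5 next after SLC38A2, with SLC38A1 ahead after miR-29a-3p (42.4 ± 2.7 against 39.4 ± 0.68 FPKM) and SLC7A5 ahead in the controls (41.4 ± 2.8 against 37.5 ± 0.15 FPKM, SD, n = 2). The rest of the order there was SLC1A5, SLC7A1, SLC3A2, SLC7A6, SLC1A4, SLC6A9 and SLC43A1 in both groups. The order by mean FPKM after miR-29a-3p in the H1299-labelled libraries was SLC7A5, SLC1A5, SLC38A2, SLC38A1, SLC3A2, SLC7A1, SLC7A6, SLC1A4, SLC6A9 and SLC43A1. In their controls SLC3A2 and SLC38A1 stood above SLC38A2, and SLC6A9 above SLC1A4 and SLC7A6, and only SLC1A4 and SLC7A6 overlapped in that group.

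Summed over the 10 genes, the A549-labelled libraries had 209 and 215 FPKM after miR-29a-3p, against 201 and 196 FPKM in their controls. For H1299-labelled cells the sum was 225 and 229 FPKM after miR-29a-3p, against 834 and 860 FPKM in the controls. The H1299-labelled controls stood above all other libraries. SLC7A5 made up 41.3% and 41.4% of the H1299-labelled sum after miR-29a-3p and 63.0% and 60.8% in the controls. Without SLC7A5 the sums were 169 and 176 FPKM after miR-29a-3p in A549-labelled cells and 157 and 157 FPKM in their controls. In H1299-labelled cells they were 132 and 134 FPKM after miR-29a-3p and 308 and 337 FPKM in the controls.

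Ratios within a library do not depend on the scaling between libraries. SLC7A5 exceeded its heavy chain SLC3A2 in every library, 3.29-fold and 3.34-fold after miR-29a-3p in A549-labelled cells and 4.70-fold and 4.78-fold in their controls. For H1299-labelled cells the ratio was 6.98 and 6.86 after miR-29a-3p and 8.47 and 8.64 in the controls, so it was lower after miR-29a-3p in both lines, although SLC3A2 rose in one and fell in the other. SLC38A1 stood at 0.671 and 0.673 of the SLC38A2 level after miR-29a-3p in A549-labelled cells and at 0.561 and 0.546 in their controls. That ratio was 0.684 and 0.707 after miR-29a-3p in H1299-labelled cells and 1.22 and 1.23 in their controls, so the treated libraries were higher in the A549-labelled set and lower in the H1299-labelled set. The ratio of SLC1A5 to SLC1A4 was 6.44 and 6.63 after miR-29a-3p in A549-labelled cells and 8.73 and 7.83 in their controls. It was 16.3 and 17.2 after miR-29a-3p in H1299-labelled cells and 20.9 and 26.4 in their controls. These ratios were not tested.

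**Figure D3:**
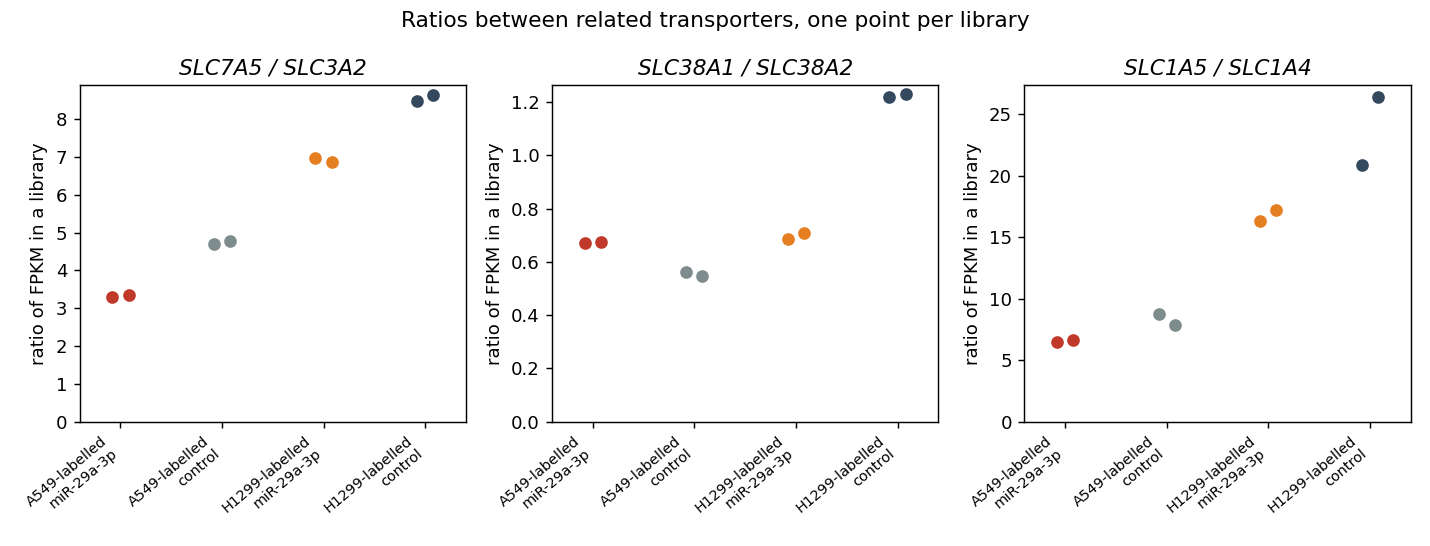
Ratio of the FPKM of related transporters in each library, by group, on linear axes from 0. The SLC7A5 to SLC3A2 ratio is lower after miR-29a-3p in both lines, whereas the SLC38A1 to SLC38A2 ratio is higher in the A549-labelled libraries (0.671 and 0.673 against 0.561 and 0.546 in their controls) and lower in the H1299-labelled ones (0.684 and 0.707 against 1.22 and 1.23).

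ATF4 itself, whose activity is set mainly at translation, had 80.6 and 72.3 FPKM after miR-29a-3p in A549-labelled cells and 60.0 and 60.7 FPKM in their controls, a rise of 0.33 on the log2 scale (limma adjusted p = 0.016). In H1299-labelled cells it had 94.2 and 95.8 FPKM after miR-29a-3p and 152 and 143 FPKM in the controls (log2 fold change -0.63, adjusted p = 0.00031). In the A549-labelled libraries 7.30% of all genes tested rose and 8.66% fell. Of 25 ATF4-linked stress genes, a list that includes ATF4, 21 rose and 0 fell there, with a median log2 fold change of 0.56. They were led by SESN2 (1.92), CHAC1 (1.52) and DDIT4 (1.10), and 13 were called without A549-labelled control 2. Of all genes tested, 25.1% rose and 24.8% fell in the H1299-labelled libraries. Among the stress genes 3 rose and 16 fell there, with a median of -0.83. The filter was passed by 1 of the 16 only through the H1299-labelled controls. The lowest were TRIB3 (-3.07), DDIT3 (-2.40) and STC2 (-2.39), which encode a pseudokinase, a transcription factor of prolonged stress and a secreted glycoprotein. The 3 that rose were SESN2 (0.61), ATF5 (0.58) and PSPH (0.39), of which SESN2, a leucine sensor that restrains growth signalling, and PSPH, an enzyme of serine synthesis, also rose in the A549-labelled libraries. In the A549-labelled controls 20 of the 25 were lower and 3 higher than in the H1299-labelled ones. The 20 include the gene that passed the filter only through the H1299-labelled controls, so the filter favoured its lower level. Of all genes tested, 29.8% were called lower and 45.0% higher between these controls.

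Aminoacyl-tRNA synthetases load amino acids onto tRNA, and several of them are induced by ATF4. In the A549-labelled libraries, where 7.30% of all genes tested rose and 8.66% fell, 7 of 18 synthetases rose and 0 fell. Their median was 0.18, and GARS1 (0.58), WARS1 (0.43) and CARS1 (0.41) led the 7 that rose. That count was 3 or 4 on leaving out a single A549-labelled library and 4 with the line fitted alone. Among H1299-labelled libraries 2 rose and 13 fell, with a median of -0.77, while 25.1% of all genes tested rose there and 24.8% fell. AARS1, at 53.3 FPKM after miR-29a-3p and 169 FPKM in the controls (means of 2), had the lowest log2 fold change (-1.64), followed by IARS1 (-1.51) and SARS1 (-1.22). The 2 that rose were QARS1 (0.48) and HARS1 (0.30).

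The other amino acid transporters were called in both directions, and their counts were not tested against the shares of all genes. Of 22 on the list, 20 were listed in the table and 8 passed the filter on low values. Among A549-labelled libraries 1 rose and 2 fell, with a median of -0.11, while 7.30% of all genes tested rose there and 8.66% fell. Those called were SLC7A11 (0.56), SLC43A2 (-0.34) and SLC36A1 (-0.80). SLC43A2 was under 1 FPKM in every A549-labelled library, at means of 0.300 FPKM after miR-29a-3p and 0.644 FPKM in the controls. Among H1299-labelled libraries 3 rose and 3 fell, with a median of -0.01, while 25.1% of all genes tested rose there and 24.8% fell. The glutamate transporter SLC1A1 rose by 1.12, SLC43A2 by 0.82 and SLC6A14 by 0.68. The last pair reached 1 FPKM only in the H1299-labelled miR-29a-3p libraries, so the filter favoured their rise. SLC6A15, a carrier of branched-chain amino acids and proline, fell by 1.33 on the log2 scale, and SLC7A2 and SLC36A1 had log2 fold changes of -0.73 and -0.40. SLC7A11, the cystine importer that pairs with SLC3A2, stood at 29.4 FPKM after miR-29a-3p in H1299-labelled cells and 30.8 FPKM in their controls (means of 2, adjusted p = 0.59), while its heavy chain fell.

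**Figure D4:**
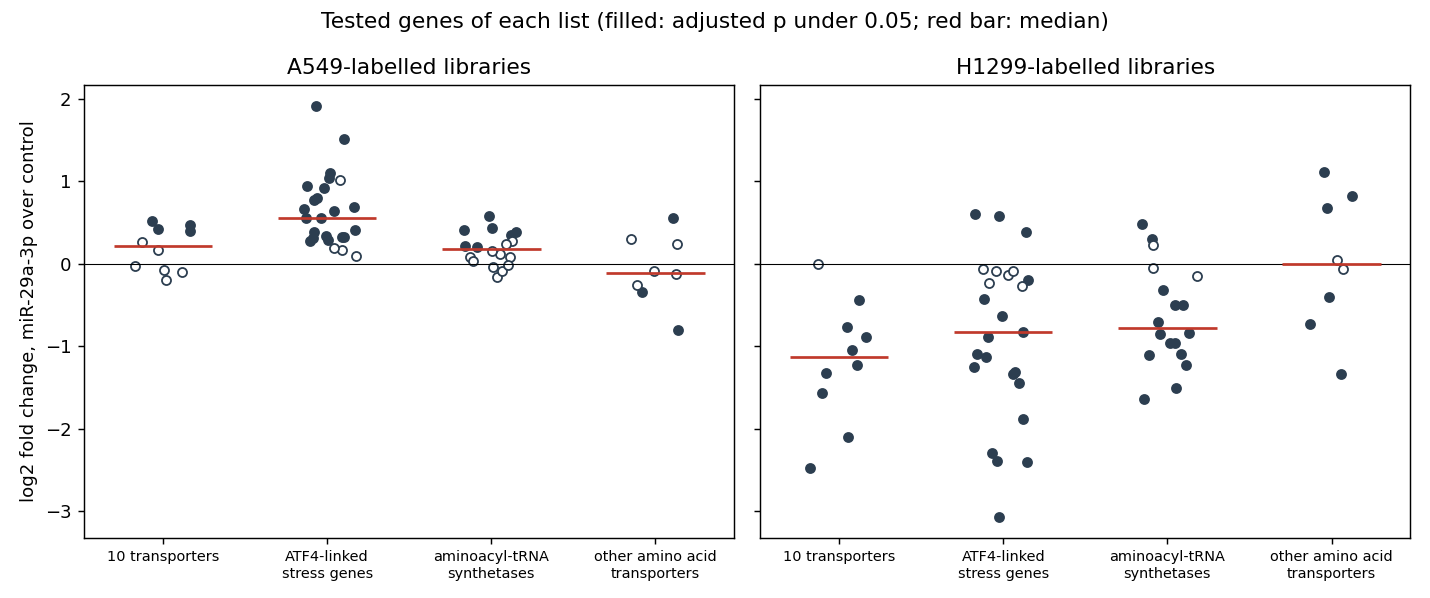
Log2 fold change, miR-29a-3p over control, of the tested genes in each list, for A549-labelled (left) and H1299-labelled (right) libraries. The median of the 10 transporters was 0.21 in the A549-labelled and -1.13 in the H1299-labelled libraries, and that of the ATF4-linked genes 0.56 and -0.83.

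Since several of these carriers are induced by ATF4, the windows from 250 bases before to 50 after each RefSeq gene start (GRCh38.p14) were searched on both strands for TGATGNAA, the core of the element that ATF4 binds with C/EBP factors. It occurred in 5 of the 17 windows of the transporters, which belong to SLC1A4, SLC1A5, SLC38A1, SLC3A2 and SLC7A1, and in 3.62% of all 35116 windows. The matches are shown on the strand of the gene with the motif in capitals, reverse complement included, to show what lies near the starts of these carriers.
SLC1A5, chr19:46784893-46784922, minus strand: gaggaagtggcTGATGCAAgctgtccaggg
SLC1A4, chr2:64989381-64989410, plus strand: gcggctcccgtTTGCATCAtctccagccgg
SLC38A1, chr12:46266502-46266531, minus strand: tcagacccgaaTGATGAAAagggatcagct
SLC7A1, chr13:29595663-29595692, minus strand: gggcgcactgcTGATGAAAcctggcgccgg
SLC3A2, chr11:62881719-62881748, plus strand: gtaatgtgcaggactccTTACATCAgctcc

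The motif began at -97, -7 and -4 from the start for SLC1A5, SLC1A4 and SLC38A1, and at 8 and 38 for SLC7A1 and SLC3A2, counting the first transcribed base as 1. For SLC1A5, SLC1A4, SLC38A1 and SLC3A2, which have 2 or 3 windows each, it lay in 1 of them. No match says only that these letters are not in the window, as for SLC7A5, SLC38A2, SLC6A9, SLC43A1 and SLC7A6. Of the 5 with a match, 3 rose in the A549-labelled libraries and 5 fell in the H1299-labelled ones. Of the 5 without a match 1 rose and 4 fell, and the 4 include SLC43A1, whose fall the filter favoured. Of all genes tested, 7.30% rose in the A549-labelled and 24.8% fell in the H1299-labelled libraries. Whether the motif goes with the response was not tested. The E-box CACGTG, a motif that MYC binds and that does not overlap the first, occurred in windows of SLC7A5, SLC1A5 and SLC43A1 and in 7.26% of all windows. MYC itself was under the filter, at 0.312 and 0.280 FPKM after miR-29a-3p in A549-labelled cells and 0.822 and 0.514 FPKM in their controls, and at 0.172 and 3.35 FPKM after miR-29a-3p in H1299-labelled cells and 0.493 and 0.420 FPKM in their controls.

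The tested genes most like SLC3A2 across the 8 libraries, by the root mean square difference of log2(FPKM + 1) centred on each gene's mean, were CITED4 (0.16), SNORC (0.19) and UPP1 (0.19). Among the transporters, SLC6A9 (0.34) and SLC1A5 (0.39) were nearest to it, ranking 25 and 48 among all tested genes. Those nearest to SLC7A5 included the noncoding genes AC034213.1 (0.20) and LINC01836 (0.27), and SLC3A2 ranked 46 at 0.55. AC034213.1 stood at 0 in the A549-labelled libraries, which is also the value given to a gene not listed for a line. The libraries of a group share their line and treatment, so this likeness rests mostly on 4 group levels.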

How the data were processed

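Total RNA was extracted with TRIzol and sequenced from VAHTS libraries, per the labels' protocols. Per the file headers, the deposited table holds FPKM for each gene in each library, and StringTie and GRCh38 are named per the submitters' processing notes. No aligner, version, annotation release or strand setting is stated there. A gene listed for 1 line only was taken as 0 in the other.

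The 14635 genes reaching 1 FPKM in 2 or more of 8 libraries were tested with limma 3.58.1 (R 4.3.3) after log2(FPKM + 1) transformation, with 4 group means, a variance trend, 4 residual degrees of freedom and Benjamini-Hochberg adjustment. The limma fit was tried on simulated data with known changes planted in the A549-labelled miR-29a-3p libraries. This tried the code for that response alone and checked no transporter result. Depth was estimated from the value of 1 fragment in genes with a single transcript, and 87.3% to 93.1% of their values then came out whole within 0.02. Libraries of a group differed beyond sampling noise (chi-square per degree of freedom 3.18 to 6.54). No label states separate cultures, so the p-values cover only library-to-library spread, which may be technical. Sites and positions came from GENCODE 29, and miRNA and promoter sequences from RefSeq.

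All 10 transporters were named, other lists by counts and at most 3 called genes in each direction, and the 3 genes nearest to each of SLC7A5 and SLC3A2, of which 1 is not reported here. Members and lists were chosen with earlier results of these data known, and synthetase symbols were updated to those of the table. Alternatives were another pseudocount (0.1), other filters, rescaled libraries, the line fitted alone, no variance trend, a replicate block and each library left out.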

Additional observations from a re-analysis of the deposited data

Results flagged for a closer look

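For 9 of the 10 transporters the response to miR-29a-3p differed between the line labels in the limma test of the difference itself, and for 8 of 9 without SLC43A1, which the filter admitted only through its high H1299-labelled controls. The difference in log2 fold change (A549-labelled minus H1299-labelled) was 2.50 for SLC3A2, 2.40 for SLC7A5, 1.84 for SLC7A1, 1.73 for SLC38A1, 1.64 for SLC6A9 and 1.30 for SLC1A5. It was 0.91 for SLC1A4, 0.69 for SLC43A1 and 0.67 for SLC38A2. Adjusted p-values ran between 3.4e-05 for SLC7A5 and SLC7A1 and 0.0042 for SLC43A1. Over all genes tested, 18.1% were called in this direction. Every treated library was above every control in the A549-labelled set and below every control in the H1299-labelled set for SLC3A2, SLC7A1, SLC38A1, SLC6A9, SLC1A5 and SLC1A4, 6 of 10, as for 9.91% of all genes tested. The line markers stood against the labels in these libraries, and their part in the differences was not tested.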

How the results depend on the processing

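Of the log2 fold changes of single transporters under the alternatives, 533 of 556 kept their direction and their side of the threshold. The 9 calls in the H1299-labelled libraries held under every alternative that tested the gene. Without either H1299-labelled control SLC43A1 fell under the filter, and 8 calls were left. The 4 calls in the A549-labelled libraries became 1 with the line fitted alone and 2 among genes averaging at least 5 FPKM, where only 6 transporters were tested. Leaving out any single A549-labelled library cost SLC3A2 or SLC6A9 its call there. Without either H1299-labelled control, SLC1A5 was called in place of SLC6A9. The SLC43A1 difference between lines lost its call with a pseudocount of 0.1 (0.86, adjusted p = 0.10), and SLC6A9 lost its A549-labelled call when all listed genes were tested (adjusted p = 0.063). SLC7A6 was the 1 transporter to change sign, with no call in those cases. Its value was 0.05 with rescaled libraries and 5.4e-06 with a pseudocount of 0.1 for the H1299-labelled response, and with single libraries left out it ranged between -0.20 and 0.20 there, between -0.06 and 0.01 for the A549-labelled response and between -0.22 and 0.18 for the difference. Between controls it ranged between -0.0032 and 0.39, the last called (without H1299-labelled control 2, adjusted p = 0.0054).

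Counts over all genes of the A549-labelled response were 2336, 1071 with the line fitted alone, 1045 to 1196 without 1 A549-labelled library and 1045 to 1968 over all single libraries left out. At a mean of at least 5 FPKM, with fewer genes to test, the counts were 3773 (H1299-labelled response, otherwise 7312), 2984 (difference, otherwise 5464) and 4923 (controls, otherwise 10941). The labels number the libraries of each group alike, but deviations of same-numbered libraries were correlated at only -0.0532 to 0.0681. With the number as a replicate block, 1969, 7134, 5202 and 10877 genes and 4, 9, 9 and 9 transporters were called in the A549-labelled response, the H1299-labelled response, the difference and the controls, the same counts of transporters as without it. Low levels of SLC43A1 and SLC6A9 limit what could be seen in the A549-labelled libraries.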

Other observations

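Of the other amino acid transporters, 12 of the 20 in the table did not pass the filter on low values, and the highest value among them in any library was 0.508 FPKM. They include the light chains SLC7A7 and SLC7A8, which also pair with SLC3A2, and the aromatic amino acid carrier SLC16A10.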
